A study of Homo sapiens with 8 samples.

Results

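Vasoactive receptors are surface proteins through which circulating amines and peptides set the tone of vessels and of other contractile cells, and 9 genes of this system were followed in fibroblasts that received medium from senescent cells. The 9 genes were found by symbol in a count table of 27696 genes. They were the α1-adrenergic receptors ADRA1B and ADRA1D, the endothelin-1 ligand EDN1, the endothelin receptors EDNRA and EDNRB, the type 1 angiotensin II receptor AGTR1, the bradykinin receptors BDKRB1 and BDKRB2, and the thrombin receptor F2R. All 9 had a row in the table, and 8 passed the filter on low counts. The gene left out was AGTR1, which had between 0 and 3 counts in every library.

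The recipient cells were IMR90, a human lung fibroblast line without the RAS construct, kept for 3 days in medium that other cells had conditioned. Those donor cells were IMR90-ER:RAS, in which a RAS protein fused to the estrogen receptor is switched on by 4-hydroxy-tamoxifen (4-OHT) and drives the cells into senescence. The groups D0, D4, D7 and D10 are named after the day of 4-OHT at which the medium was taken, so D0 recipients also received medium from the donor line. The donors' days of 4-OHT and their senescence go together over the groups, so their parts cannot be told apart. The 8 libraries compared come from 2 independent experiments, with 2 libraries in each group. Libraries with the same replicate number were taken as the same experiment, which the labels do not state. The p-values of the main fit measure the spread between the libraries of a group. Total counts ranged from 11708193 to 13395912 per library.

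Most of these receptors signal through the G proteins Gq and G12/13, which release calcium, activate RHOA and drive contraction through myosin light chain. Adrenergic, angiotensin and type A endothelin receptors are best known for this contractile arm in smooth muscle and myofibroblasts. The bradykinin receptors belong to the inflammatory kinin system. B2, the product of BDKRB2, is present in resting cells and binds bradykinin itself, whereas B1, the product of BDKRB1, is known as an injury-inducible receptor for kinins that have lost their last arginine. EDNRB and F2R take part in both arms and were placed on neither side.

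Expression is given as CPM, counts per 1000000 counts of the TMM-normalized library size, with the SD of 2 libraries, and changes as log2 fold changes with their standard error from edgeR's fit of all 8 libraries. A gene was called at a Benjamini-Hochberg adjusted p under 0.05 over the 13798 genes tested. Libraries of the same experiment deviated together from their group means, so a second fit carried the experiment as a replicate block. Its p-values measure the spread left after a shared difference between experiments is removed. Its adjusted p is given where it changes a call. Positions are those of GENCODE 29 on GRCh38.

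All 10 fibroblast markers were detected in every library. Their summed level lay between 30386 and 46849 CPM in 7 libraries and at 10131 CPM in D10 replicate 2, which stood apart in this sum. The widest ranges in CPM were those of the collagens COL1A1 (1295 to 14499) and COL1A2 (2862 to 14774). DCN ranged from 572 to 4340 CPM, COL3A1 from 467 to 3360 and VIM from 3486 to 8777. THY1 ranged from 574 to 1638 CPM and PDGFRB from 120 to 481. For PDGFRA the range was 396 to 636 CPM, for LUM 147 to 444 and for FAP 47.2 to 102. The 6 endothelial markers with a row summed to 42.9 to 122 CPM, mostly TEK (40.4 to 120.5 CPM). VWF had 0.746 to 2.37 CPM in every library, and PECAM1, CDH5, CLDN5 and TIE1 stayed at or below 0.993 CPM. The 7 smooth muscle or pericyte markers summed to 182 to 336 CPM, lowest in D10 replicate 2. In that list SMTN (77.7 to 166 CPM), NOTCH3 (77.2 to 188) and RGS5 (4.02 to 13.4) were detected in every library, while MYH11, DES, KCNJ8 and ABCC9 stayed at or below 1.24 CPM. The 5 epithelial markers with a row summed to 23.0 to 64.1 CPM, lowest at D10, and most of this was KRT18 (22.6 to 62.8 CPM). KRT19 had 0.158 to 1.94 CPM and EPCAM 0.237 to 0.535, with CDH1 and SFTPC at or below 0.229. The 4 leukocyte markers with a row summed to 1.31 to 3.44 CPM, mostly CD14 (0.946 to 2.68). LYZ had 0.298 to 0.670 CPM, with PTPRC and ITGAM at or below 0.0838. The part of other cell types in the results was not tested. In bulk RNA, fewer cells of a type and less RNA per cell cannot be told apart.

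Among the 9 genes, 3 passed the threshold in the comparison of D10 with D0 once the experiment was taken into account, 1 lower and 2 higher (against 2.45% lower and 2.54% higher of all genes), and the bases before their RefSeq start sites are shown here because these 3 genes carry the contrast described below. The windows are 250 bases long and read 5′ to 3′ from RefSeq on GRCh38.p14. Capitals mark the letters TGACNTCA on either strand, which resemble a cAMP response element but allow any base at 1 place. Whether they act as such an element was not tested. ADRA1B lies at chr5:159916232-159916481, BDKRB1 at chr14:96255960-96256209 and BDKRB2 at chr14:96204589-96204838, all on the plus strand. The ADRA1B and BDKRB1 windows lie inside the longer genes that GENCODE draws, and that of BDKRB2 spans its GENCODE start.
ADRA1B: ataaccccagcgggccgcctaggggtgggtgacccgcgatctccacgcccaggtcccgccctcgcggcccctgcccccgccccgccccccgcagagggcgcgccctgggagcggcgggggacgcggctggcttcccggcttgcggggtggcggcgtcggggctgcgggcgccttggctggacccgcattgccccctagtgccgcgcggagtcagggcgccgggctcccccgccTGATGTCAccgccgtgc
BDKRB1: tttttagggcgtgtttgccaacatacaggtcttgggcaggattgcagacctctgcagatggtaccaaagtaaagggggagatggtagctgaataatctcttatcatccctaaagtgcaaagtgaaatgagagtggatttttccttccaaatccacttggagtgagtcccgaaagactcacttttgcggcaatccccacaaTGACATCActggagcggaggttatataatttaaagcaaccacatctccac
BDKRB2: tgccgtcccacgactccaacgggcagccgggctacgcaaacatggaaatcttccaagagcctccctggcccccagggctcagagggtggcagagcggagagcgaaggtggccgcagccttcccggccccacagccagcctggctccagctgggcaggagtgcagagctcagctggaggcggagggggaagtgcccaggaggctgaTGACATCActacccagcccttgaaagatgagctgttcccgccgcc

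Of the 9 genes, 6 had a window in the RefSeq table. The TGACNTCA letters were looked for after the sequences had been seen, so their presence here is no test of them. They were present in these 3 genes, in the receptor that was lower as well as in those that were higher. Of 35116 windows of the same length, 6.87% held them. In BDKRB1 and BDKRB2 the match ran from 50 to 43 and from 45 to 38 bases before the start, and in ADRA1B from 17 to 10. G and C made up 79.6% of the ADRA1B window, 66.4% of that of BDKRB2 and 44.8% of that of BDKRB1, against a median of 58.0% over all windows. The NF-κB consensus and the CArG box, searched on both strands, and the AP-1 letters TGANTCA, likewise on both, had no match in the windows of the 6 genes and occurred in 9.96%, 1.16% and 6.57% of all windows. The letters TATAAA, searched on the coding strand, were found only before EDN1, from 31 to 26 bases before 1 of its RefSeq starts, and in 6.8% of all windows.

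At the level of calls, edgeR's quasi-likelihood test placed 0 of the 8 tested genes past the threshold at D4, D7 or D10 against D0, and 0 at D10 against D4. Over all genes tested, the percentage called was 0 at D4, 0 at D7, 0.29 at D10 and 0.00725 for D10 against D4. At an unadjusted p under 0.05 there were 3, 3 and 6 of the 8 genes at D4, D7 and D10, where the background was 2.96%, 4.34% and 7.94%. With the replicate block, 0, 1 and 3 of the 8 genes were called, against 0.275%, 1.25% and 4.99% of all genes, and DESeq2 likewise called 0, 1 and 3, against 0.348%, 0.823% and 2.59%. For D10 against D4, 2 of the 8 genes had an unadjusted p under 0.05, against 5.7%, and DESeq2 and the block each called 2, against 0.938% and 2.55%. The genes called were ADRA1B at D7 and ADRA1B, BDKRB1 and BDKRB2 at D10, in both of these tests. The 3 comparisons with D0 share its libraries and so are not independent of each other.

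The counts of the blocked fit changed without D10 replicate 2, the library whose summed fibroblast marker level stood apart. Whether they would change without another library was not tested, since that fit left out only D10 replicate 2. Without it, in a blocked fit chosen after seeing the data in which the lone D10 library is assumed to vary like the others, edgeR called 2, 3 and 5 of the 8 genes at D4, D7 and D10, against 3.18%, 5.49% and 6.32% of all genes. ADRA1B and EDNRA were called lower at D4, D7 and D10, BDKRB1 higher at D7 and D10, BDKRB2 higher at D10 and EDN1 lower at D10. For D10 against D4 this fit called 1, BDKRB2, against 2.6%. Groups that did not overlap at all with D0 held 2 genes above and 3 below at D4, 3 above and 4 below at D7, and 4 above and 2 below at D10. Of all genes, 9.73% and 12.6%, 13.7% and 15.2%, and 15% and 16% lay above and below at these media. For D10 against D4 the groups of 3 genes lay above and of 1 below, against 13.1% and 12.6%.

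ADRA1B (ENSG00000170214.4, chromosome 5 from 159865080 to 159972544, plus strand) encodes the α1B-adrenergic receptor, a Gq-coupled receptor for noradrenaline and adrenaline. It measured 11.3 and 7.64 CPM with D0 medium, 4.81 and 3.43 with D4, 3.36 and 2.20 with D7 and 2.93 and 1.74 with D10, in experiments 1 and 2. Every library after D0 medium was below both D0 libraries, and within each experiment the level was lower at each later medium. These values rest on 135 and 105 reads at D0 and 37 and 22 at D10.

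The fitted change of ADRA1B was -1.20 (standard error 0.41) at D4, -1.76 (0.42) at D7 and -2.02 (0.43) at D10, the last equal to a 4.05-fold lower level. Within an experiment the D10 change was -1.89 and -2.04, so it was of like size in both. The adjusted p of edgeR's quasi-likelihood test was 0.11 at D10, and with the replicate block 0.0167 at D7 and 0.00333 at D10. At D4 the blocked test gave an edgeR adjusted p of 0.103, and of 0.01 without D10 replicate 2. From D4 to D10 ADRA1B changed by a further -0.82 (0.43), with an edgeR adjusted p of 0.955, or 0.145 with the block.

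ADRA1D (ENSG00000171873.7, chromosome 20 from 4220631 to 4249074, minus strand) encodes the α1D subtype, which also couples to Gq and is prominent in large arteries. It was near the lower limit of detection, with 4 and 8 counts with D0 medium, 10 and 11 with D4, 8 and 16 with D7 and 8 and 35 with D10. The 35 counts of D10 replicate 2 stood above the other libraries. Its fitted change at D10 was 1.85 (0.77), with 0.69 in experiment 1 and 1.98 in experiment 2, an edgeR adjusted p of 0.592, and a value of 0.44 without D10 replicate 2. The α1 subtypes therefore had fitted changes of opposite sign at every medium, while only that of ADRA1B was called, with the block.

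AGTR1 (ENSG00000144891.17, chromosome 3 from 148697784 to 148743008, plus strand), the receptor through which angiotensin II contracts vessels and activates fibroblasts, was hardly detected. It had 1 and 3 counts with D0 medium, 2 and 1 with D4, 2 and 0 with D7 and 0 and 1 with D10. No group rose above the floor of 3 counts per library, so no change can be given at this depth.

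EDN1 (ENSG00000078401.6, chromosome 6 from 12290363 to 12297194, plus strand) encodes the precursor of endothelin-1, a strong vasoconstrictor peptide that myofibroblasts also release. It measured 6.54 and 9.75 CPM with D0 medium, 7.06 and 8.95 with D4, 5.35 and 5.32 with D7 and 3.09 and 13.01 with D10. The D10 libraries lay on either side of all others, 1 at the bottom and 1 at the top. The fitted change at D10 was -0.02 (0.58), with -1.05 in experiment 1 and 0.41 in experiment 2, and the edgeR adjusted p was 0.998. Without D10 replicate 2 it was -1.40 and without D10 replicate 1 it was 0.69, so the D10 value of the ligand had no direction shared by both experiments. The blocked fit without D10 replicate 2 gave -1.22, with an edgeR adjusted p of 0.0424, and rests on the 39 counts of the other D10 library.

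EDNRA (ENSG00000151617.15, chromosome 4 from 147480917 to 147544954, plus strand) encodes the type A endothelin receptor, which carries the contractile response to endothelin-1. It measured 42.1 and 40.7 CPM with D0 medium, 22.5 and 26.4 with D4, 22.7 and 15.2 with D7 and 21.5 and 29.03 with D10. All 6 libraries with later medium were below both D0 libraries, and the lowest mean, 18.9 ± 5.30 CPM (SD, n = 2), was that of D7. The fitted change was -0.76 (0.27) at D4, -1.13 (0.27) at D7 and -0.71 (0.27) at D10. The edgeR adjusted p was 1 at D4, 0.408 at D7 and 0.49 at D10, and with the block 0.314, 0.0656 and 0.13, so no call was made. Without D10 replicate 2 the blocked edgeR adjusted p was 0.0342, 0.00169 and 0.0218, for changes of -0.75, -1.14 and -1.002. Between D4 and D10 the difference was 0.05 (0.27), smaller than its standard error.

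EDNRB (ENSG00000136160.14, chromosome 13 from 77895481 to 77975529, minus strand) encodes the type B endothelin receptor, known for endothelial nitric oxide release, clearance of endothelin and, in smooth muscle, contraction. It measured 4.02 and 2.77 CPM with D0 medium, 1.01 and 0.746 with D4, 0.382 and 1.97 with D7 and 4.12 and 26.3 with D10. The level was below D0 in all 4 libraries of D4 and D7, and at D10 it was close to the D0 level in experiment 1 and above every other library in experiment 2. The D10 libraries held 52 and 334 counts, against 13 and 10 at D4.

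The fitted change of EDNRB was -1.94 (0.98) at D4, -1.51 (0.95) at D7 and 2.17 (0.88) at D10, and edgeR's adjusted p was 1, 1 and 0.563. The D10 change was 0.03 in experiment 1 and 3.18 in experiment 2, and 0.28 without D10 replicate 2. From D4 to D10 EDNRB was higher by 4.10 (0.99), with 1.88 and 4.88 in the experiments. The edgeR adjusted p of this step was 0.344, 0.0491 with the replicate block and 3.5e-04 with DESeq2, and the step was 2.22 without D10 replicate 2, or 2.31 with the block and an edgeR adjusted p of 0.0707. With the block 2 of the 8 genes were called between D4 and D10, EDNRB and BDKRB2, against 2.55% of all genes.
EDNRB is abundant in endothelium, and the 6 listed endothelial markers that had a row summed to 91.1 and 79.2 CPM with D0 medium, 42.9 and 53.6 with D4, 70.5 and 71.2 with D7 and 122 and 78.1 with D10. Most of this sum was TEK, which ranged from 40.4 to 121 CPM. VWF had 10 to 31 counts in a library. PECAM1 had at most 13 counts, TIE1 at most 6, CDH5 at most 5 and CLDN5 at most 2 in any library. The part of endothelial RNA in the result was not tested. Genes on the opposite strand overlap 1.43% of the exon bases of EDNRB.

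**Figure D1:**
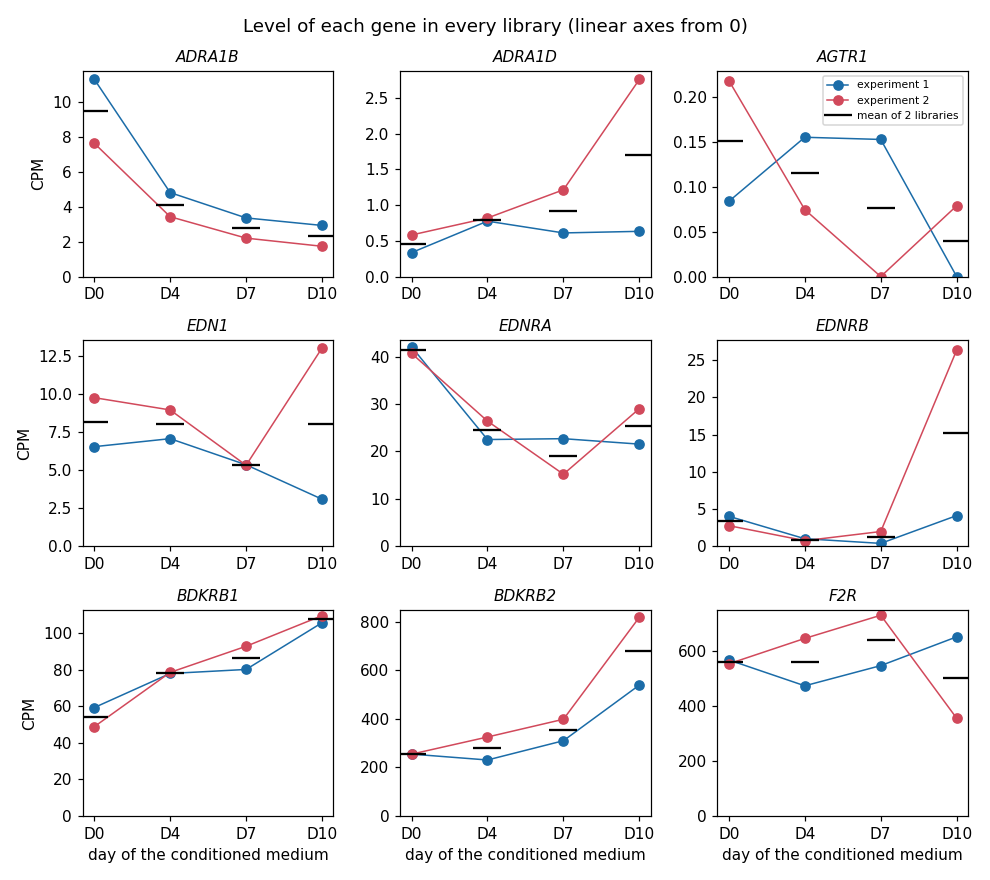
CPM of each of the 9 genes (vertical axes, linear, from 0) against the day of the conditioned medium (horizontal axes), with 1 point a library, lines joining the libraries of an experiment and a black bar at the mean of 2 libraries. ADRA1B was lower and BDKRB1 higher at each later medium in both experiments, whereas EDNRB, EDN1, ADRA1D and F2R parted between the experiments at D10.

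BDKRB1 (ENSG00000100739.10, chromosome 14 from 96255824 to 96268967, plus strand) encodes the B1 kinin receptor. It measured 59.2 and 48.8 CPM with D0 medium, 77.9 and 78.5 with D4, 80.1 and 92.8 with D7 and 106 and 110 with D10. Each later medium gave higher values than the one before in both experiments, and all 6 libraries after D0 were above both D0 libraries. The fitted change was 0.53 (0.20) at D4, 0.68 (0.20) at D7 and 0.99 (0.20) at D10, a 1.99-fold higher level. At D10 the experiments gave 0.83 and 1.17, with an edgeR adjusted p of 0.10, and of 0.0081 with the replicate block. Without D10 replicate 2 it was 0.97.

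BDKRB2 (ENSG00000168398.6, chromosome 14 from 96204679 to 96244166, plus strand) encodes the B2 receptor and lies 11657 bases before BDKRB1. It measured 255 CPM in each D0 library, 230 and 325 with D4 medium, 310 and 398 with D7 and 539 and 819 with D10. At D4 the groups overlapped, since the experiment 1 library was below D0, and from D7 on both libraries were above. The fitted change was 0.13 (0.30) at D4, 0.48 (0.30) at D7 and 1.42 (0.31) at D10, a 2.67-fold higher level that rested on 6813 and 10383 counts. The D10 change was 1.08 and 1.69 within the experiments, and the edgeR adjusted p was 0.118, or 0.00512 with the block. Without D10 replicate 2 it was 1.08, and the blocked edgeR adjusted p was 0.0011.

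From D4 to D10 BDKRB2 was higher by 1.29 (0.31), with 1.23 and 1.33 in the experiments, an edgeR adjusted p of 0.343, and 0.0153 with the block. The same step of BDKRB1 was 0.46 (0.20), with 0.44 and 0.48 in the experiments and an edgeR adjusted p of 0.886, or 0.164 with the block. At D4 the fitted change was 0.53 for BDKRB1 and 0.13 for BDKRB2, and the difference between the receptors was not tested. The genes share no 50-base words with each other. The gene AL355102.2 on the same strand covers 13.6% of the exon bases of BDKRB1 and 7.00% of those of BDKRB2. It shares 11.98% of the 50-base words of BDKRB1 and 5.56% of those of BDKRB2. AL355102.2 had no row among the counts, so its own level is not known. AL355102.4, on the opposite strand of BDKRB1, had at most 1 count in a library.

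F2R (ENSG00000181104.6, chromosome 5 from 76716043 to 76735781, plus strand) encodes PAR1, the receptor that thrombin opens by cutting its outer end, with roles in contraction, inflammation and repair. It measured 568 and 554 CPM with D0 medium, 474 and 646 with D4, 547 and 731 with D7 and 652 and 355 with D10. The groups overlapped in every comparison. The fitted change at D10 was -0.15 (0.35), with 0.20 in experiment 1 and -0.64 in experiment 2, and an edgeR adjusted p of 0.998. Without D10 replicate 2 it was 0.22, so the sign rested on that library.

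**Figure D2:**
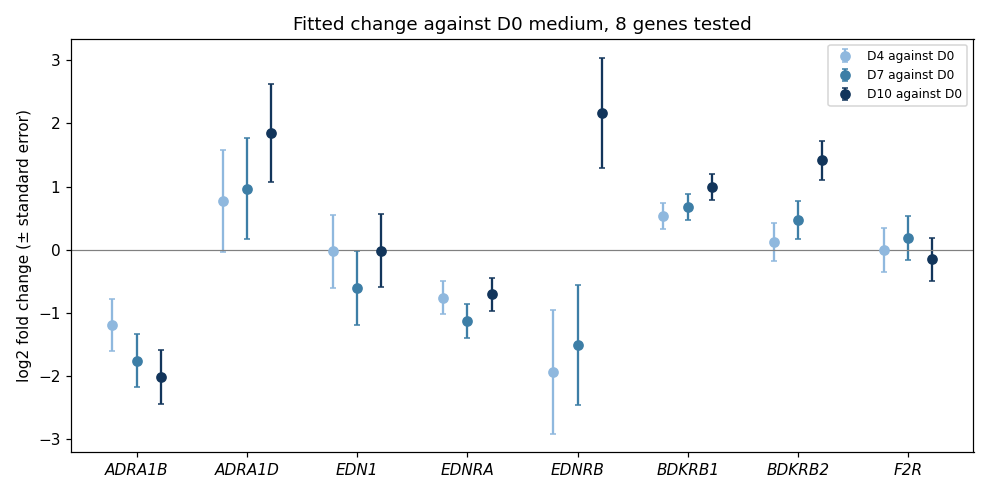
Fitted log2 fold change against D0 (vertical axis, points with bars of 1 standard error) of the 8 tested genes at D4, D7 and D10. ADRA1B lay furthest below 0 at D10 with -2.02, BDKRB1 and BDKRB2 lay above 0 with short bars, and the bars of ADRA1D and EDNRB were the widest.

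The receptors linked to contraction and those linked to inflammation were set side by side within each experiment, as the changes in log2 CPM from D0 to D10. ADRA1B changed by -1.89 and -2.04 and EDNRA by -0.96 and -0.49, while BDKRB1 changed by 0.83 and 1.17 and BDKRB2 by 1.08 and 1.69. ADRA1D, with few counts, went against its side with 0.69 and 1.98, and AGTR1 was at the floor, so 2 of the 4 genes linked to contraction were lower in both experiments and both genes linked to inflammation were higher. No test was made of the contrast, since the genes were grouped with results of these data known.

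The ratio of ADRA1B to BDKRB1 within a library, which does not depend on the scaling of that library, was 0.191 and 0.157 with D0 medium, 0.0618 and 0.0437 with D4, 0.0419 and 0.0237 with D7 and 0.0277 and 0.0158 with D10. It was lower at each later medium in both experiments. The ratio of EDNRA to BDKRB1 was 0.71 and 0.834 with D0 medium, 0.289 and 0.336 with D4, 0.283 and 0.164 with D7 and 0.204 and 0.265 with D10. Here the later groups were all below D0, and experiment 2 was lowest at D7.

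**Figure D3:**
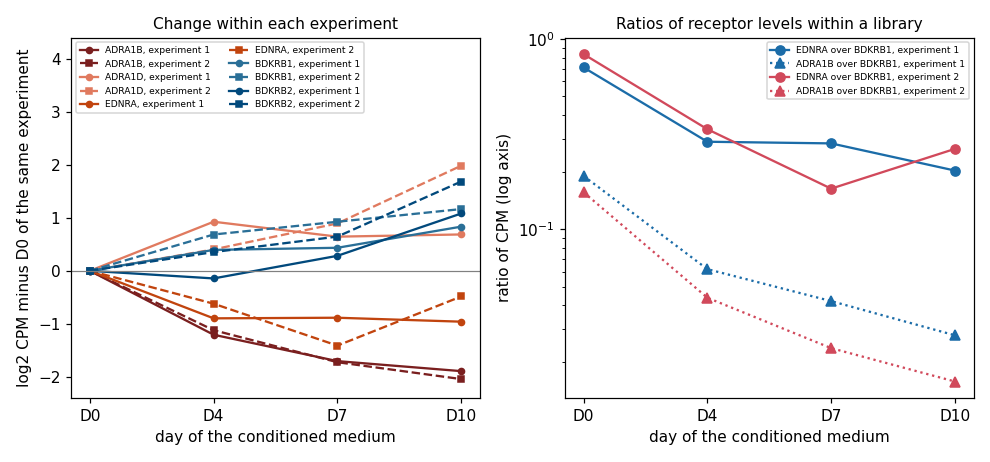
Left, change in log2 CPM from D0 of the same experiment against the day of the medium, in red shades for genes linked to contraction and blue shades for those linked to inflammation, with AGTR1 not drawn. Right, ratio of the CPM of EDNRA or ADRA1B to that of BDKRB1 within a library, on a log axis, which was 0.191 and 0.157 for ADRA1B at D0 and 0.0277 and 0.0158 at D10.

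Levels of different genes were compared as CPM per kb of exon. At D0 the order was F2R with 138 ± 2.43 (SD, n = 2), BDKRB2 with 37.2 ± 0.0195, BDKRB1 with 19.6 ± 2.69, EDNRA with 9.76 ± 0.229, EDN1 with 4.01 ± 1.12, ADRA1B with 3.53 ± 0.966, EDNRB with 0.605 ± 0.158, ADRA1D with 0.164 ± 0.0626 and AGTR1 with 0.0434 ± 0.0274. Of neighbours in this order, EDN1 and ADRA1B overlapped, with 3.21 and 4.80 against 4.21 and 2.84 CPM per kb, and the others did not. At D10 F2R and BDKRB2 overlapped, with 160 and 87.4 against 78.8 and 120 CPM per kb. BDKRB1 kept its place below them with 38.3 and 39.7 CPM per kb, and ADRA1B, with 1.09 and 0.646, overlapped EDNRB and ADRA1D. The levels thus spanned a wide range, from a thrombin receptor among the abundant transcripts to an angiotensin receptor at the floor.

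**Figure D4:**
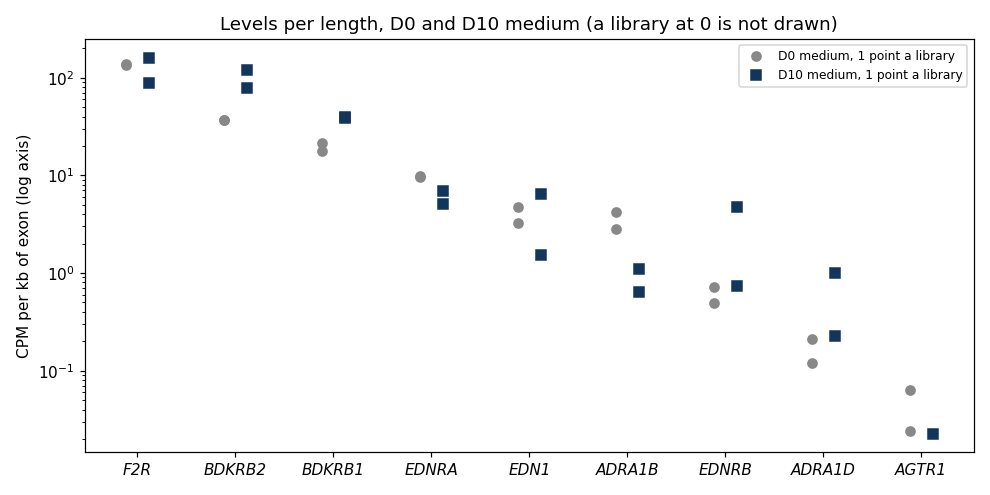
CPM per kb of exon (log axis) of the 9 genes in order of their D0 mean, with 1 point for each library of D0 and D10. F2R and BDKRB2 overlapped at D10, and ADRA1B moved from 4.21 and 2.84 to 1.09 and 0.646 CPM per kb.

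The transcripts whose pattern was most like that of each gene were sought by Pearson's r of log2 CPM over the 8 libraries, after each experiment's mean was subtracted. This describes the libraries only, since with 8 points in 4 groups many of 13798 genes follow a given profile closely. For ADRA1B they were FAXC, PMP22 and ADAMTS15 (r of 0.993, 0.992 and 0.992). For BDKRB1 they were PLAT, which encodes tissue plasminogen activator, the metallothionein MT2A, and PITPNC1 (0.994, 0.991 and 0.991), and for BDKRB2 PAQR5, FEM1B and ZNF814 (0.992, 0.991 and 0.991). For EDNRB they were PLTP, AP003071.4 and NUP50-AS1 (0.983, 0.983 and 0.979), and for EDNRA KCNT2, CARMIL1 and RAB33A (0.982, 0.975 and 0.971). Among the 9 genes themselves, ADRA1B and BDKRB1 had an r of -0.953 over the same 8 libraries. It was 0.846 for BDKRB1 and BDKRB2 and 0.781 for ADRA1B and EDNRA. Other pairs went against the sides. ADRA1D, placed with contraction, had -0.809 with ADRA1B, 0.824 with BDKRB1 and 0.762 with BDKRB2, and EDNRA had only -0.287 with BDKRB2.

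Other receptors of vasoactive agents formed a list of 41 genes, of which 28 had a row and 20 were tested. At D10 edgeR's quasi-likelihood test called 0 of them, where 3 higher and 5 lower had an unadjusted p below 0.05, while the replicate block called 2 higher and 6 lower and DESeq2 2 higher and 4 lower. Over all genes tested 7.94% had an unadjusted p below 0.05, the block called 2.54% higher and 2.45% lower, and DESeq2 called 2.59% in either direction. The median log2 fold change of the 20 genes was -0.56, against 0.004 over all genes. This list too was chosen with earlier results known, so the shares are no test of it.
HTR2B, a Gq-coupled serotonin receptor, had the largest change downward, from 9.38 and 16.2 CPM at D0 to 0.475 and 1.42 at D10, a fitted change of -3.74 (0.58) with an edgeR adjusted p of 0.055, and 7.2e-04 with the block. The other genes called lower with the block are named after their values were seen. They were OXTR, the oxytocin receptor (-3.33), RAMP1, a subunit of the CGRP receptor (-2.08), NPR3, the natriuretic peptide clearance receptor (-2.005), S1PR3, a sphingosine-1-phosphate receptor (-0.93), and CHRM2, a muscarinic receptor (-0.88).
PTGIR, the relaxant prostacyclin receptor, had the largest change upward, from 1.09 and 1.75 CPM at D0 to 4.91 and 8.20 at D10, a fitted change of 2.19 (0.55) with an edgeR adjusted p of 0.18, and 0.00677 with the block. PTGFR, the contractile receptor for prostaglandin F2α and likewise named after its value was seen, changed by 2.13 (0.43), with 0.00663 for the edgeR adjusted p with the block. Receptors of both prostanoids were thus higher in both experiments although they are known for opposite effects on smooth muscle.

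**Figure D5:**
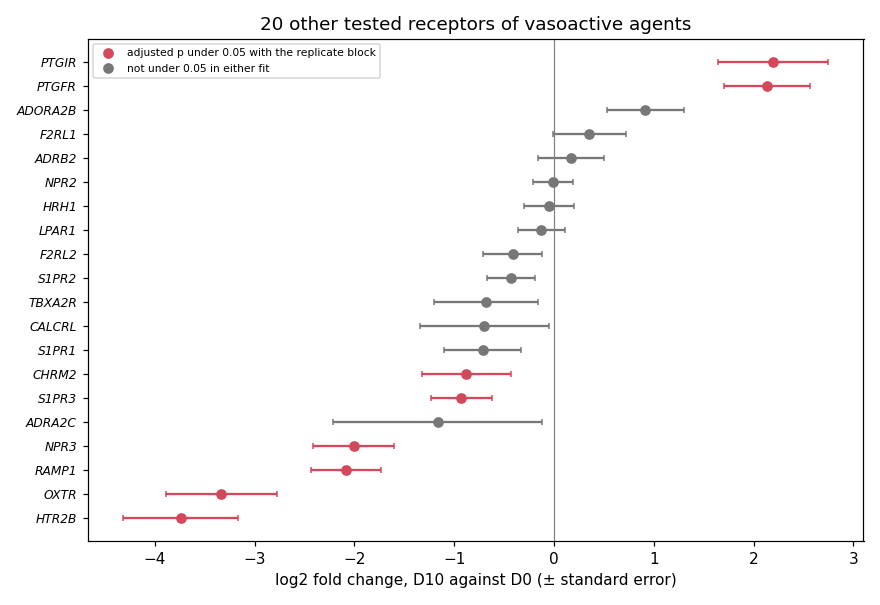
Fitted log2 fold change at D10 against D0 (horizontal axis, bars of 1 standard error) of the 20 other tested receptors of vasoactive agents, ordered by size, with red for an adjusted p under 0.05 with the replicate block. HTR2B lay lowest at -3.74 and PTGIR highest at 2.19.

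Ligands and the peptidases that make or destroy them formed a list of 20 genes, of which 15 had a row and 10 were tested. None was called at D10 by edgeR's quasi-likelihood test, where 2 higher and 0 lower had an unadjusted p below 0.05, and the block and DESeq2 each called 2 higher and 0 lower. The shares over all genes were 7.94% at an unadjusted p below 0.05, 4.99% with the block and 2.59% with DESeq2. Their median log2 fold change was 0.20, against 0.004 over all genes. As this list was chosen with earlier results known, the shares are no test of it.
The largest change upward was that of MME, the gene of neprilysin, which cuts bradykinin and endothelin-1. It went from 8.71 and 18.9 CPM at D0 to 26.8 and 120 at D10, 1.60 and 2.65 within the experiments and a fitted change of 2.40 (0.70), with an edgeR adjusted p of 0.275, and 0.0167 with the block. The second gene called with the block, named after its values were seen, was that of carboxypeptidase M, which removes the last arginine of kinins and so turns B2 ligands into B1 ligands. It had 2.43 and 1.75 CPM at D0 and 7.20 and 5.28 at D10, a fitted change of 1.58 (0.34), with an edgeR adjusted p of 0.118, and 0.0185 with the block. The largest change downward, not called, was -0.34 (0.38) for ACE, which makes angiotensin II and degrades bradykinin. AGT, the precursor of angiotensin II, had 0.19 (0.52), and ECE1, which cuts the endothelin precursor, 0.20 (0.34), both named after their values were seen.

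Of 42 genes of Gq and G12/13 signalling and its regulators, all with a row, 39 were tested. At D10 edgeR's quasi-likelihood test called 0, where 3 higher and 1 lower had an unadjusted p below 0.05, while the block called 1 higher and 1 lower, and DESeq2 called 0. Over all genes 7.94% had an unadjusted p below 0.05 and the block called 4.99%, so the 4 and 2 of 39 genes were near the background and are no result about the list. Their median was 0.01, against 0.004 over all genes. As single genes, RGS2, which shortens Gq signals, had the largest change upward, 0.99 (0.85), from 18.3 and 48.8 CPM at D0 to 26.8 and 106 at D10, with an edgeR adjusted p of 0.998, or 0.0211 with the block. MYL9, the myosin light chain of contractile fibres, had the largest change downward, -0.92 (0.46), from 2366 and 1509 CPM to 1291 and 751, with an edgeR adjusted p of 0.747, or 0.0236 with the block. GNAQ and GNA11, the Gq-class subunits through which the α1 and B2 receptors signal, had -0.25 (0.26) and -0.18 (0.31), smaller than their standard errors, and are named here with their values known.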

How the data were processed

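RNA from the 8 libraries had been poly(A)-selected and made into stranded libraries. Raw counts for each gene were deposited together with RPM values, which equal the deposited counts over the column total and were not used in the tests. The submitters' processing notes list STAR 2.5, DESeq2 and GRCh38. The counting tool and its strand setting are not given in the sources used here. The header of 1 column reads DO and was taken as D0 replicate 1.

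Genes were filtered with filterByExpr and libraries scaled by TMM, and edgeR 4.0.16 (glmQLFit, glmQLFTest, R 4.3.3) modelled the group means over all libraries, with Benjamini-Hochberg adjustment. Log2 CPM used a prior count of 2. Same-numbered libraries were taken to come from the same independent experiment, which the labels do not state. Their deviations from group means had correlations from 0.418 to 0.722 over the 6 group pairs, so a replicate block was also fitted. Alternatives were DESeq2 1.42.0, its size factors, dropping the filter, a minimum of 10 counts per library, only the compared groups, raw column totals and leaving out each library, plus the block without D10 replicate 2, chosen after seeing the data. TGACNTCA was added to the motifs after the windows were seen. The fit was tested on simulated data. Identifiers matched GENCODE 29 in 99.6% of rows. The members and gene lists were chosen with earlier results of these data known. Named besides the 9 genes are the largest change in each direction of each list at D10 and the 3 nearest patterns of ADRA1B, BDKRB1, BDKRB2, EDNRB and EDNRA. Further genes of the lists were named with their values known, as stated where they appear. Figures used Python 3.11.15.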

Additional observations from a re-analysis of the deposited data

Results flagged for a closer look

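EDNRB was set apart because every library moved below D0 at D4 and D7 and above it at D10. Its change in log2 CPM was -1.84 with D4 medium in experiment 1 and -1.70 in experiment 2, -2.96 and -0.46 with D7 medium, and 0.032 and 3.18 with D10 medium. The difference between D10 and D4 had 0.344 as its edgeR adjusted p, or 0.0491 in the blocked fit and 0.0707 when that fit lacked D10 replicate 2. The difference between D10 and D7 was not tested. The D10 change of experiment 1 was close to 0.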

How the results depend on the processing

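The number of the 8 genes called at D7 was 0, and 1 with DESeq2 or the replicate block. At D10 it was 0, and 3 with DESeq2, 3 with the block and 2 without a filter (BDKRB1 was not called there). For D10 against D4 it was 0, and 2 with DESeq2, 2 with the block and 1 without a filter, and between 0 and 1 when a library was left out. At D4 it was 0 with DESeq2, its size factors, the block, either filter change, the compared groups only and each library left out. The block without D10 replicate 2, an alternative chosen after seeing the data, gave 2 at D4, 3 at D7, 5 at D10 and 1 for D10 against D4. It turned F2R at D10 to 0.35 and, from D4 to D10, ADRA1D to -0.011, EDN1 to -1.20, EDNRA to -0.25 and F2R to 0.37. Over all genes, 40 were called at D10, and 383 with DESeq2, 371 without a filter, 688 with the block, 20 with at least 10 counts everywhere and 0 with the compared groups only, and leaving out a library gave 0 to 155. The block changed no other call of the 8 genes than those named. Log2 changes near 0 turned sign, and so did that of ADRA1D from D4 to D10, which was 1.08 (0.73) in the main fit. F2R at D4 was -0.0022, and 0.013 with DESeq2, 0.013 with its size factors, 0.0018 without a filter and 6e-04 with the compared groups. EDN1 from D4 to D10 was 0.0083, and -0.0061 with DESeq2, -0.0025 with its size factors and -0.13 with the block. Leaving out a library gave -0.28 to 0.29 for EDN1, -0.14 to 0.35 for BDKRB2 and -0.24 to 0.20 for F2R at D4, and -0.033 to 0.39 for F2R at D7. At D10 it gave -1.40 to 0.69 for EDN1 and -0.64 to 0.22 for F2R. From D4 to D10 it gave -1.37 to 0.71 for EDN1, -0.33 to 1.79 for ADRA1D, -0.18 to 0.26 for EDNRA and -0.65 to 0.22 for F2R. The cause was not tested. At D10 the ranges were -2.42 to -1.69 for ADRA1B, 0.86 to 1.14 for BDKRB1 and 1.08 to 1.70 for BDKRB2. Raw column totals moved 2 of the 36 group means by more than their SD.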

Other observations

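ADRA1B was lower in experiment 2 than in experiment 1 in all 4 groups, by 0.47 to 0.71 on the log2 scale, and ADRA1D was higher in experiment 2 in all 4, by 0.07 to 1.89. Each difference is between 1 library and 1 other, and no test was made of it. For ADRA1D it rests on few reads, 4 against 8 counts at D0 and 10 against 11 at D4.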
